A study of Mus musculus with 24 samples.

Results

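The H3K27ac signal at 8 genes of nitrogen handling in the mouse liver was examined: Cps1, Ass1, Asl, Nags, Gls2, Tat, Hal and Glul. The genes were taken by name, as 8 of 22350 protein-coding genes on the autosomes and X. Each peak that overlapped a gene body or the 10 kb on either side of it (mm9, the assembly NCBIM37) by at least 1 bp was assigned to the gene, and the stretch so defined is called its window. By these criteria the windows held 72 peaks of 79818 in the B6 male list, 75 of 82176 in the B6 female list, 87 of 90228 in the CAST male list and 79 of 84645 in the CAST female list. The rule for membership uses gene names alone, and every member had peaks in every list.

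The liver removes ammonia in a fixed spatial order along the lobule. Hepatocytes near the portal vein, where blood enters, carry the urea cycle and much of amino acid breakdown, and the genes for these steps are called periportal. A thin ring of hepatocytes around the central vein carries glutamine synthetase, the product of Glul, which captures the ammonia that escapes the urea cycle; genes of that ring are called pericentral. H3K27ac, acetylation of lysine 27 on histone H3, marks active promoters and enhancers. The comparison asked of the peaks was how the 7 periportal genes differ from Glul, and how both differ between sexes and strains.

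Mice of 8 weeks were used in 4 groups, male and female C57BL/6J (B6) and male and female CAST/EiJ (CAST), 2 inbred strains without a transgene or treatment in the labels. Each group had 5 livers with H3K27ac ChIP-seq and 1 input, 24 samples in all. The data analysed here are 4 peak lists, 1 per group and each pooled over the 5 livers, so no value below has replicates behind it, no SD can be given and no test was run. Groups follow the sample titles. In the strain entry of the labels, strain goes with sex (CAST for females, B6 for males), which contradicts the titles of 2 groups. Where 4 values follow each other below, they are for B6 male, B6 female, CAST male and CAST female, in that order.

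Signal was read in 3 ways. The fold enrichment of a peak is the authors' ratio of the fragments at the summit to the local background. By combining this ratio with the p-value of the peak, the number of ChIP fragments at the summit and the background were solved for between 99.9% and 100.0% of peaks. Only whole fragment numbers were searched, so their being whole is not a result. The summit level is that fragment number divided by the lowest background of the list, which equals its genome mean coverage. The 10 kb level is the background of the peak divided by the same floor, and it follows the mean ChIP coverage of the 10 kb around the summit. A broad marked domain thus has a high 10 kb level, and a peak inside it has a low fold enrichment for its height. The floors were 18.4, 18.7, 17.8 and 16.8 fragments, which corresponds to library depths of 149.6 M, 162.6 M, 155.3 M and 147.5 M fragments. Intervals below are exact binomial or Wilson 95% intervals on counts and cover counting error only. In whole liver, fewer cells that carry the mark and less mark per cell cannot be told apart, which bears on every level given for a zonated gene.

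The lists carried the marks of hepatocytes. All 6 hepatocyte markers lay above the all-gene median of covered percent in every list, with median 10 kb levels of 7.61, 6.83, 7.71 and 6.57. Of 5 markers of other tissues, 1, 2, 1 and 1 also lay above that median, and their 10 kb levels reached at most 1.73. Of 5 Kupffer cell markers, 0, 2, 1 and 1 had any peak, and the highest 10 kb level among them was 1.16. All 5 endothelial markers had peaks, at median 10 kb levels between 1.72 and 1.96, and 3, 4, 4 and 3 of them lay above the all-gene median of covered percent. The highest of them, Stab2, had 10 kb levels of 3.86, 3.55, 5.36 and 4.82, close to or above the range of Glul given below. The medians of the stellate cell and cholangiocyte markers were at 1.00 or listed at 0. Of 5 stellate cell markers 0, and of 5 cholangiocyte markers 2, Sox9 and Spp1, lay above the all-gene median of covered percent in each list, and Sox9 reached a 10 kb level of 3.02. The part of these other cell types in the member signal was not tested.

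All 8 members lay above the all-gene median of covered percent in all 4 lists. That median was 4.82%, 4.68%, 5.10% and 4.66% of the window, and the members ranged from 7.68% at Cps1 in B6 males to 27% at Asl in CAST females. In the plot of covered percent by gene, Asl, Tat and Gls2 stand highest in the CAST lists and Cps1 lowest in every list. Cps1 is also the longest of the genes, at 108.2 kb.

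**Figure D1:**
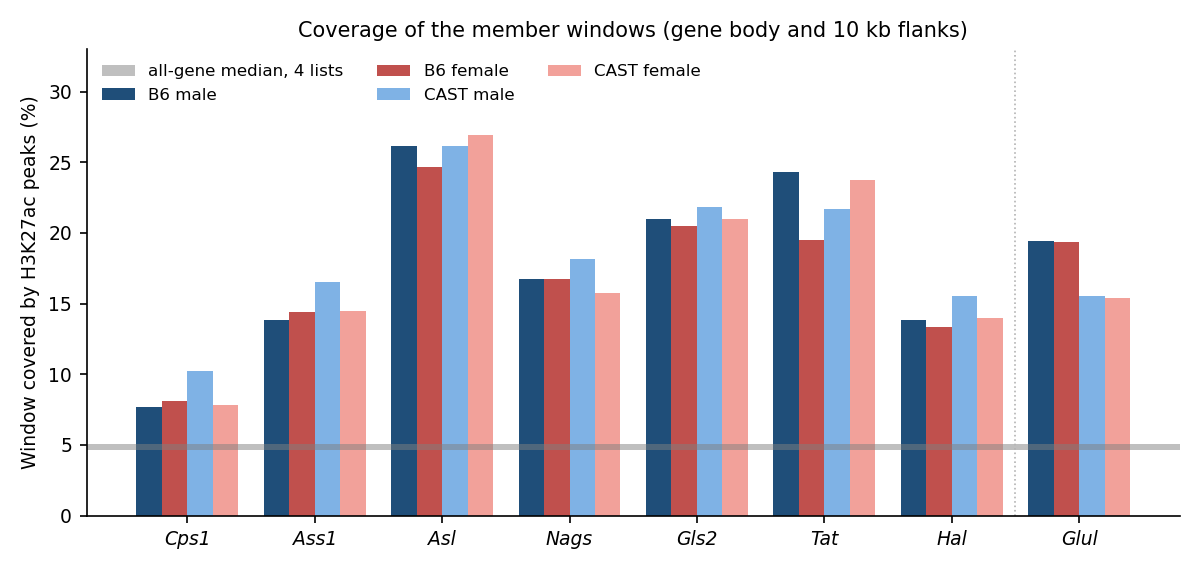
Percent of each member window (gene body and 10 kb on each side, x axis by gene) covered by H3K27ac peaks on the y axis, 1 bar per pooled list, with no error bars because each list is 1 value. Every bar rises past the grey band, the all-gene medians of 4.66% to 5.10%, and Glul stands to the right of the dotted line.

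Nags makes N-acetylglutamate, the obligate activator of the first enzyme of the urea cycle. The gene lies at chr11:102006827-102010791 on the plus strand. Its window held 4, 4, 5 and 4 peaks that covered 4005, 4021, 4352 and 3775 bp. The start of Nags carried a single wide peak in every list (region 3, chr11:102006576-102008480, over the start and a coding exon), with summit levels of 17.8, 15.9, 20.9 and 17.2. Region 2, centred at -2.56 kb from the start, was called in all lists with summit levels of 12, 11.4, 16 and 12.5. The highest-ranked region of the window was not at Nags itself: region 4, 10.65 kb past the start, lies at the start of Tmem101. Region 5, 14.19 kb past the start and downstream of the gene, was called in both CAST lists, at the 65.4th and 63.9th score percentiles, and in neither B6 list. It crosses the outer edge of the window, and the summits of its highest-ranked peaks lie past that edge.

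Cps1 encodes carbamoyl phosphate synthetase 1, the mitochondrial enzyme that feeds ammonia into the cycle. It lies at chr1:67169600-67277833 on the plus strand, and its window held 17, 17, 25 and 18 peaks, the most of any member, with Ass1 level in CAST females. They covered 9853, 10418, 13102 and 10060 bp. The signal fell into a strong and a weak part. Around the start, 4 regions between -10.18 and 4.39 kb from the start had 10 kb levels between 4.04 and 5.24, read like all region values at the highest-ranked peak of the region in a list, while single peaks reached 5.41. Over the rest of the gene body, 34 regions between 8.73 and 107.66 kb past the start had 10 kb levels between 1.21 and 3.15, a median best score percentile of 15.6 and a highest of 48.1. Only 3 of those 34 were called in all 4 lists and 21 were called in 1 list.

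The start region of Cps1 (region 3, chr1:67169692-67171959, over a coding exon) had summit levels of 10.9, 9.52, 12.3 and 11.5. These were in the lower part of the 12307 to 12799 coding starts that carried a peak, at percentiles of 30.5, 27.4, 31.8 and 37.6. The 10 kb levels at the same peak were 4.74, 4.23, 4.88 and 4.52, at percentiles of 89.9, 87.7, 88.6 and 90.9 of those starts. A start with a modest summit thus sat in a broadly marked neighbourhood. The highest-ranked region of the window was upstream (region 2, chr1:67160269-67163057, centred at -7.94 kb and the widest region at 2789 bp), with score percentiles of 75.4, 81.9, 86.9 and 82.4.

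Ass1 encodes argininosuccinate synthase, which joins citrulline to aspartate. The gene lies at chr2:31325727-31376192 on the plus strand, with 15, 14, 18 and 18 peaks in its window that covered 9728, 10177, 11640 and 10221 bp. It had the tallest summits of the 8 members, at region 1 (chr2:31314880-31317250), centred at -9.66 kb and away from any annotated coding start, with summit levels of 23.3, 22.8, 30.0 and 28.9. The start region (region 5, chr2:31325886-31328268) had summit levels of 18.2, 17.4, 22.9 and 22.3 and 10 kb levels of 6.63, 6.32, 8.67 and 7.81, above 97.7% to 99.2% of starts with a peak. From region 1 to the start, all 5 regions were called in every list. Further in, 11 regions between 12.2 and 41.46 kb past the start were weak, with 10 kb levels of 1.87 to 3.48, and 2 of them were called in all lists.

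Asl encodes argininosuccinate lyase, which releases arginine and fumarate. It lies at chr5:130487128-130501002 on the minus strand, and its window had the highest covered percent of the members in all 4 lists, 26.1%, 24.7%, 26.1% and 27%, above 99.2% to 99.6% of all coding windows. The start region (region 5, chr5:130498507-130500152, over a coding exon) had summit levels of 21.6, 18.7, 26.9 and 21.2, the highest of the member starts in the B6 lists and in CAST males. The highest-ranked region of the window, region 1, lies at the start of Gusb, and region 8, at -4.40 kb, lies at the start of Crcp. Away from coding starts the highest-ranked region was region 9 (chr5:130507529-130508868), at -7.20 kb, with summit levels of 16.6, 16.1, 21.3 and 18.5. At the outer edge of the window, region 11 was called in B6 males at the 18.7th percentile, not in B6 females, and in CAST males and females at the 36.0th and 59.8th.

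Gls2 encodes the liver glutaminase, which frees ammonia from glutamine beside the urea cycle. It lies at chr10:127631513-127647060 on the plus strand, and 9, 11, 10 and 10 peaks covered 7462, 7280, 7752 and 7471 bp of its window. The lists differed little in covered bases here. The start region (region 3, chr10:127631719-127633431) had summit levels of 18.9, 16, 22.6 and 17.9. Region 9, 16.83 kb past the start, lies at the start of Spryd4, and the widest region, region 11 (chr10:127656216-127659752), lies 26.47 kb past the start, outside the gene. Region 5, 4.70 kb into the gene over a coding exon, was called in B6 females and in both CAST lists, at percentiles of 31.6, 56.5 and 60.8, and not in B6 males.

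Tat encodes tyrosine aminotransferase, long known as a gene induced by glucocorticoids. It lies at chr8:112514337-112523703 on the plus strand, with 7, 8, 8 and 8 peaks that covered 7131, 5731, 6371 and 6976 bp. Upstream of Tat, 6 regions between -7.99 and -2.54 kb from the start formed a block with 10 kb levels of 6.53, 5.90, 7.68 and 7.0 at its outer region, and 4 of the 6 were called in every list. Within this block single peaks stood little above their surroundings. The start region (region 8, chr8:112515207-112516941) had fold enrichments of 1.79, 2.0, 1.80 and 2.0, at percentiles of 0.503, 1.78, 0.343 and 1.33 among starts with a peak, although its 10 kb levels of 5.85, 5.55, 7.02 and 6.22 were above 95.7% to 97.5% of them. Downstream of the gene, region 9 (chr8:112527186-112529236, 13.87 kb past the start) was the highest-ranked region by score in all lists but CAST males, where region 1 was, and had summit levels of 8.28, 6.47, 8.32 and 6.71.

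Hal encodes histidine ammonia-lyase, the first enzyme of histidine breakdown. The gene lies at chr10:92951513-92982049 on the plus strand, and 7, 7, 7 and 8 peaks covered 6993, 6752, 7865 and 7085 bp. Of its 7 regions, 6 were called in every list. The start region (region 2, chr10:92949688-92952799, the widest at 3112 bp) had the lowest summit of the member starts in B6, with levels of 9.64, 8.93, 12.7 and 12.2. Toward the 3′ end of the gene, region 5 (chr10:92978964-92979834) had summit levels of 13.1, 14, 15.2 and 12.2, above the start in the B6 lists and in CAST males. Region 1, at the outer edge of the window and centred at -10.92 kb, was weak in B6 males at a summit level of 2.12, not called in B6 females, and stood at 5.12 and 7.43 in CAST males and females. The 250 bases before the start of Hal (chr10:92951263-92951512, plus strand, mm9) are shown because they hold 3 of the words searched, in capitals and from 5′ to 3′: CTTTGAT, which TCF/LEF factors of the Wnt pathway bind, the C/EBP word TTGCNNAA, and the steroid receptor pair ACANNNTGT.
Hal start: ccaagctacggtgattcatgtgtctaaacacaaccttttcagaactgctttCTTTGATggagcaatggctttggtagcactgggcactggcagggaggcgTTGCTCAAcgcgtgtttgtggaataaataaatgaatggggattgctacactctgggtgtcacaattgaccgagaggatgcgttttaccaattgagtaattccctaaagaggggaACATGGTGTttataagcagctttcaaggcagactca

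Glul, the pericentral member, lies at chr1:155747074-155756853 on the plus strand. Its window held 3, 5, 5 and 3 peaks, which covered 5796, 5760, 4629 and 4580 bp. The signal was concentrated at the start: region 2 (chr1:155746256-155749073, 2818 bp wide) had summit levels of 18.1, 14.4, 18.8 and 19.6 and score percentiles of 92.9, 89.5, 93.1 and 96.4. The other regions called in every list were low, with summit levels of 4.03, 3.10, 3.04 and 3.15 at the 3′ end of the gene (region 3) and 4.36, 4.28, 4.95 and 4.58 downstream (region 4). Region 2 also lies within 1 kb of the start of 5830403L16Rik, and region 4 at that of Gm11074. Region 1, at -4.84 kb (chr1:155741960-155742514), was called in B6 females only, at the 52.9th percentile and a summit level of 5.40. The 250 bases before the start of Glul (chr1:155746824-155747073, plus strand, mm9) are shown against those of Hal. They are 66.4% G and C, against 45.6% at Hal, and hold 1 steroid receptor pair, in capitals. The window at the summit of the B6 female region (chr1:155742270-155742569, plus strand, mm9) is shown for the region called in 1 list, and holds 1 C/EBP word, in capitals.
Glul start: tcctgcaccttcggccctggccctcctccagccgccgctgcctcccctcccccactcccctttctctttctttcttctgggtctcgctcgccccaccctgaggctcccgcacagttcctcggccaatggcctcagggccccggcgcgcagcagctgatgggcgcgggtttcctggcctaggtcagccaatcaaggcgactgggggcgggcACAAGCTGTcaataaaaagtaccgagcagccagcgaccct
Glul region 1: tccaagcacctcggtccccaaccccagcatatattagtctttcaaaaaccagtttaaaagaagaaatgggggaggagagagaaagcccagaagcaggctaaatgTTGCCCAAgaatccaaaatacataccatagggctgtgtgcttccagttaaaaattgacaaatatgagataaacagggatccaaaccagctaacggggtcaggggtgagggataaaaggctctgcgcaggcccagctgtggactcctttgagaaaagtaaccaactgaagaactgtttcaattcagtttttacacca

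**Figure D2:**
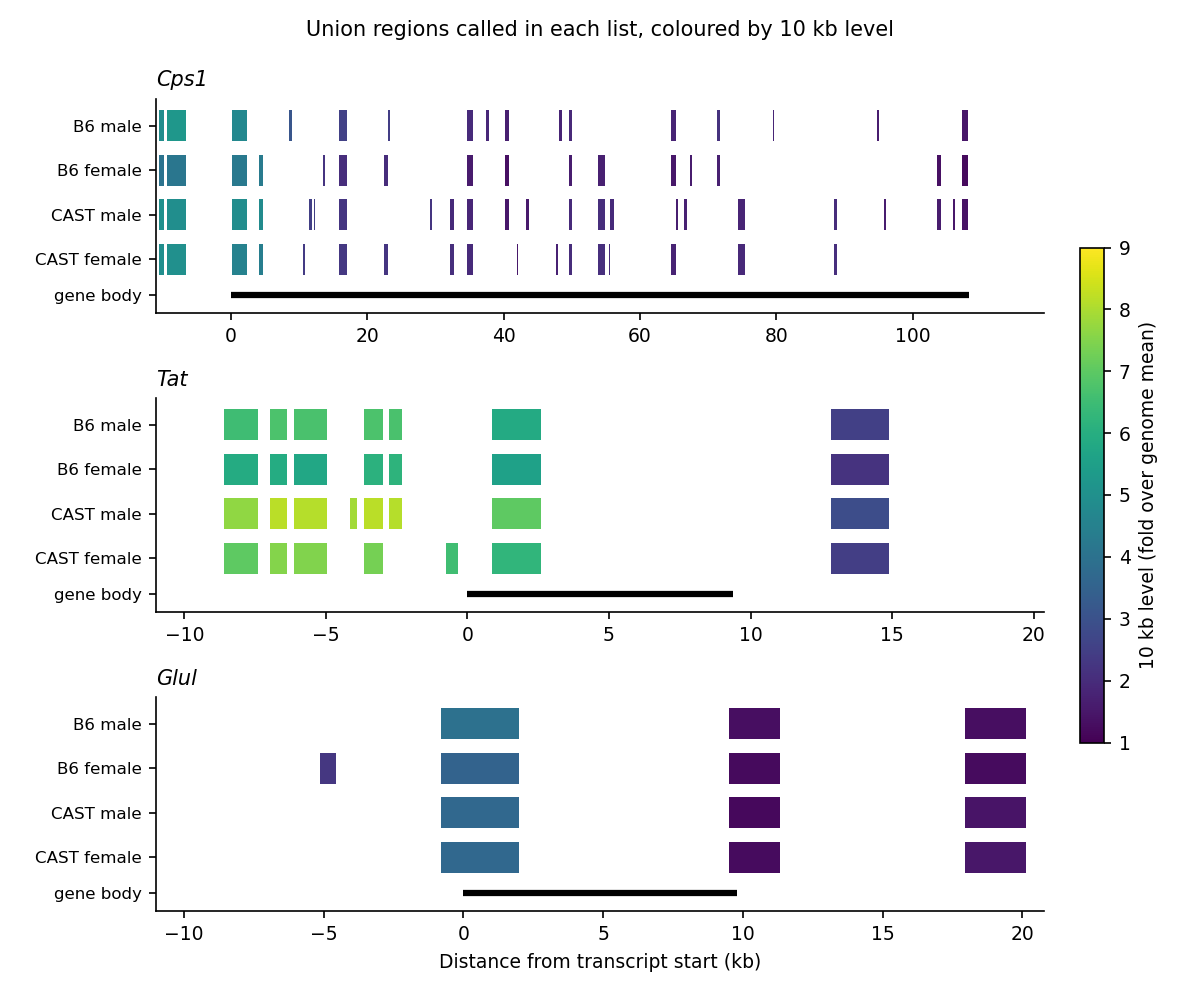
Union regions in the windows of Cps1, Tat and Glul, drawn by distance from the transcript start (kb, x axis), 1 row per list and the gene body as a black bar, coloured by the 10 kb level in that list. Tat shows a block of regions upstream at 10 kb levels near or above 6, Cps1 a marked start followed by weak scattered calls, and Glul 1 region at its start with low regions around the 3′ end.

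Glul was compared with the 7 periportal members at the peak of the transcript start, where each gene has 1 value per list. In all 4 lists Glul had the highest fold enrichment of the 8 starts, 4.53, 4.04, 5.07 and 5.26, and no overlap with the periportal members, whose lowest value was at Tat and whose highest values were 3.57, 3.54 and 3.61 at Gls2 and 3.79 at Nags. By the 10 kb level the order was turned. Glul stood at 3.96, 3.53, 3.67 and 3.68, below every periportal member in the CAST lists (though level with Hal, at 3.69, in females) and below all but Hal, at 3.6 and 3.12, in the B6 lists. Periportal medians were 5.26, 4.48, 6.2 and 5.97. By the summit level the groups did not separate: Glul ranked 4, 5, 5 and 3 of 8, and the periportal medians of 17.8, 15.9, 20.9 and 17.2 lay on either side of its own levels of 18.1, 14.4, 18.8 and 19.6.

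Both fold enrichment and 10 kb level rest on the same background, so the first pattern and the second are not independent. The starts differed in the level of the neighbourhood rather than in summit height: a summit of similar height stood on a neighbourhood that was lower at Glul than at most periportal starts. The width of the called peak did not set Glul apart. It was 2713, 1985, 1549 and 2201 bp, within the periportal range in every list. All starts with a peak had a median fold enrichment of 5.22, 5.31, 5.63 and 5.21 and a median 10 kb level of 2.42, 2.31, 2.52 and 2.24. The 8 members were thus above the typical start in 10 kb level in every list, and all but Glul in CAST females were below it in fold enrichment.

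**Figure D3:**
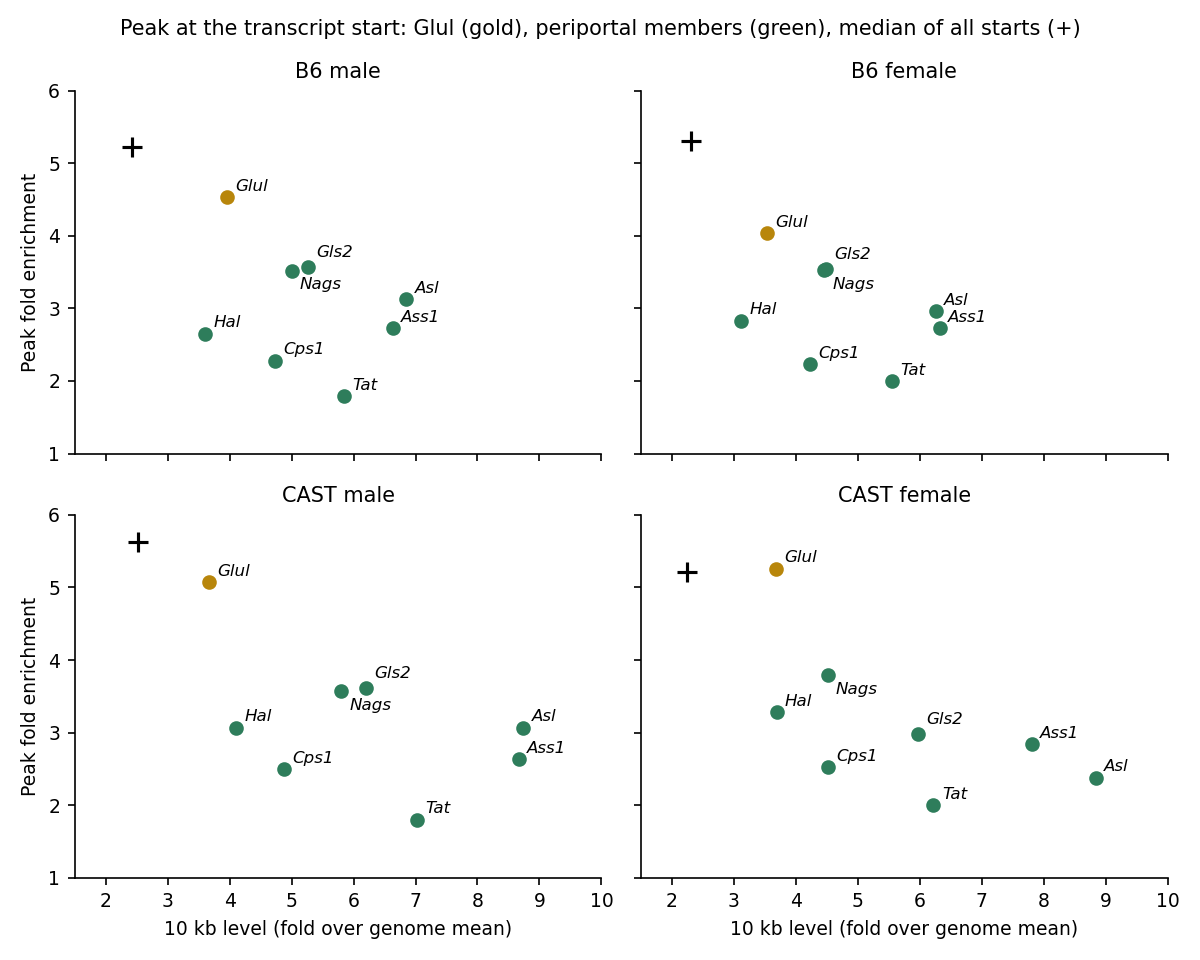
Fold enrichment (y axis, ratio) against 10 kb level (x axis, fold over the genome mean) of the peak at each member's transcript start, 1 panel per list. Glul in gold is the highest point of the 8 in each panel and lies at a 10 kb level of 3.96 or less, left of every periportal member in green but Hal in B6 and level with Hal in CAST females, and the plus sign marks the median of all starts with a peak.

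Over the whole window, the highest 10 kb level was lowest at Glul among the 8 members in all lists, 3.96, 3.74, 3.77 and 3.68. Periportal medians were 6.18, 5.64, 8.17 and 7.50, and the medians over all coding windows were 1.82, 1.78, 1.93 and 1.76. Windows without a peak entered the latter as 0. The lowest periportal values were 5.0 at Nags, 4.31 at Cps1, 4.92 at Cps1 and 4.51 at Nags. Averaged over the lists, Glul minus the periportal median was -3.08, and it was -2.45 with no flank, -3.35 with 25 kb flanks, -3.16 without peaks at other coding starts and -1.77 at the own start. The highest fold enrichment of the window, unlike that of the start, did not set Glul apart: it ranked 4, 4, 4 and 3 of 8, and the highest periportal values were 6.89 at Asl, 6.74 at Nags, 6.32 at Asl and 5.78 at Asl. These values came from peaks at the starts of other genes, Gusb in the Asl window and Tmem101 in the Nags window. Away from other coding starts, region 19, downstream of Ass1, had 5.15, 5.31, 5.41 and 5.06, above Glul in all lists but CAST females.

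Covered percent did not set Glul apart. Glul had 19.5%, 19.3%, 15.5% and 15.4%, against periportal medians of 16.7%, 16.8%, 18.2% and 15.8%, and it ranked 4, 4, 7 and 5 of 8. The mean difference of 0.581 percentage points turned to -5.96 with 25 kb flanks and to -2.06 without regions at other coding starts. The number of peaks was lower, at 3 to 5 against periportal medians of 9.0 to 10.0, and only Nags had as few.

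In each strain, female and male lists were compared by the bases covered in each window. In B6, 0 of 8 members changed by 1.5-fold or more, against 9.29% of all coding windows with peaks in both lists. The largest difference was at Tat, with 5731 bp in females and 7131 bp in males (ratio 0.804). In CAST, 0 of 8 members passed 1.5-fold, against 10.9% of windows, and the largest difference was at Cps1, with 10060 bp in females and 13102 bp in males (0.768). The total of covered bases at Glul was close between the sexes, with ratios of 0.994 in B6 and 0.989 in CAST, although its single regions differed. In B6, region 1 added 555 bp in females while region 2 covered 2360 bp in females and 2713 bp in males. In CAST, region 2 covered 2201 bp in females and 1918 bp in males, and region 3 covered 1011 and 1345 bp.

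By the highest 10 kb level, female lists were lower than male lists at most members. In B6 the female over male ratio was below 1 at 8 of 8 members, against 69.6% of all windows and 85.3% of windows with a mean level of 4 or more, which is where most members lie. The median ratio was 0.910, and 0 members passed 1.5-fold against 1.12% of windows. All windows had a median ratio of 0.964, and the high windows had 0.933. In CAST it was below 1 at 6 of 8 members, against 84.6% of all windows and 93.5% of the high windows. The member median of 0.947 was above the 0.895 of all windows and the 0.854 of the high windows, and 0 members passed 1.5-fold against 1.27%. The list-wide ratios were thus below 1 as well in both strains, and once divided by the all-window median 0 of 8 members in B6 and 5 of 8 in CAST were higher in females. Cps1 differed most between the strains, from 4.31 over 5.41 in B6 (0.797) to 5.27 over 4.92 in CAST (1.07). At its start (region 3) the female over male ratios of the 10 kb level were close, 0.892 in B6 and 0.926 in CAST.

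At the start of Glul, the summit held 333 fragments in B6 males and 270 in B6 females, a ratio of 0.796 scaled by the floors (interval 0.676 to 0.938), below which lay 12.5% of all regions called in every list. In CAST the numbers were 335 in males and 330 in females, a ratio of 1.04 (0.891 to 1.22). Over the 49 member regions called in all lists, 1 passed 1.5-fold between the B6 sexes by summit level against 4.20% of all such regions, and 0 between the CAST sexes against 6.50%. The 1 region was at Asl (region 3, downstream of the gene), with 81 fragments in B6 males and 53 in B6 females, a ratio of 0.642 (0.446 to 0.92).

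Between strains, covered bases passed 1.5-fold at 0 of 8 members in males, against 14.4% of windows, and at 0 of 8 in females, against 18.7%. The largest ratio was at Cps1 in males, with 13102 bp in CAST and 9853 bp in B6 (1.33). Glul had fewer covered bases in CAST in both sexes, by ratios of 0.799 and 0.795.

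By the highest 10 kb level, 6 of 8 members were higher in CAST than in B6 in each sex, and the share of all windows differed between the sexes. In males, 69.6% of all windows and 79.9% of the high windows were higher in CAST too, so the count is near the background, and the members had a median ratio of 1.19 beside 1.04 for all windows and 1.08 for the high windows. The exceptions were Cps1 at 0.910 and Glul at 0.952. At the peak of the own start Cps1 stood at 1.03 in males. There, 7 of 8 members were higher in CAST in males and 8 of 8 in females. In females 41.1% of all windows and 46.0% of the high windows were higher in CAST, and the members had a median of 1.19 beside 0.982 and 0.991. The exceptions were Hal at 0.991 and Glul at 0.983, and divided by the all-window median they were 1.01 and 1.0. No member passed 1.5-fold by its highest level, against 3.25% of windows in males and 4.94% in females.

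Gls2 and Asl had the highest of these ratios. Gls2 went from 6.18 to 8.27 in males (1.34), where the CAST value came from region 5, not called in B6 males, and the ratio at region 4, called in all lists, was 1.22. In females it went from 5.64 to 8.06 (1.43). Asl went from 7.68 to 9.68 in males (1.26) and from 6.97 to 10.1 in females (1.45), where the CAST value came from a region called in that list alone; at region 6, called in all lists, the female ratio was 1.39. These ratios lay above those of 93.4% to 96.7% of all windows, so they were high but within the range of other genes. The strains were mapped to different genomes, CAST to its own and B6 to mm9, and the part of that difference in alignment was not tested.

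**Figure D4:**
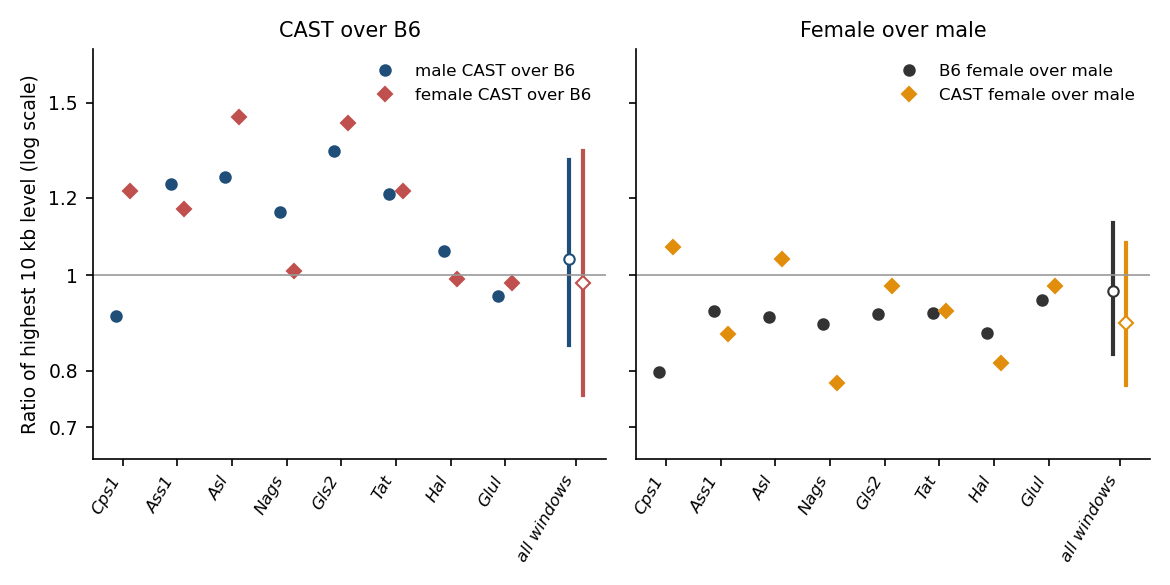
Ratio of the highest 10 kb level in each member window (y axis, log scale) between strains on the left and between sexes on the right, 1 point per gene and pair of lists. Open symbols and bars at the right of each panel give the median and the 5th to 95th percentiles of all coding windows. Gls2 and Asl reach 1.43 and 1.45 between strains in females, while Glul stays at 0.952 and 0.983.

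The level was also compared region by region. Of the 49 member regions called in all lists, 43 had a higher 10 kb level in CAST than in B6 males, against 59.9% of all such regions, and 48 in females, against 46.4%, with medians of 1.17 and 1.21 beside 1.02 and 1.00 for all regions. By this level 0 regions passed 1.5-fold in males, against 2.14% of all such regions, and 4 in females, against 5.50%: region 8 of Gls2 (1.64), region 3 of Asl (1.56), region 11 of Gls2 (1.52) and region 12 of Ass1 (1.52). Regions of 1 gene share neighbourhoods, so these counts are not independent of each other. The background regions were not matched for level. Among windows, the share higher in CAST rose with level, from 69.6% to 79.9% in males and from 41.1% to 46.0% in females. By summit level 1 region passed 1.5-fold in males, against 8.11% of all regions, and 7 of 49 in females, against 13.1%. In males it was the wide region downstream of Gls2 (region 11), with 156 fragments in CAST and 105 in B6, a ratio of 1.53 (1.19 to 1.98). That region crosses the outer edge of the window, and the 2 summits lie at different places. The B6 male summit, at chr10:127656524, is inside the window, and the CAST male summit, at chr10:127658073, is past its end. In females 4 were at Asl, 2 at Gls2 and 1 in Hal. Region 3 of Hal, over a coding exon 8.80 kb past the start, had 115 fragments in CAST and 64 in B6 females, a ratio of 2.0 (1.46 to 2.75). At the start of Glul, the female ratio was 1.36 (1.15 to 1.6) by summit level and 1.04 by 10 kb level.

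Overlapping peaks of the 4 lists were merged into union regions, of which 104 lay at the members. All lists called 49 of them, 47.1% (interval 37.8 to 56.6), against 40.4% of all 119348 regions and 42.1% of those in coding windows. With gene bodies alone it was 32.4%, against 42.2% of the regions in coding gene bodies. The genes differed in this share. Hal had 6 of 7 regions in all lists, Glul 3 of 4, Asl and Gls2 8 of 11 each, Tat 6 of 9, Nags 3 of 5 and Ass1 9 of 19. Cps1 had 6 of 38, 15.8% (7.44 to 30.4). Without Cps1 and Ass1 the share was 72.3%, 34 of 47 regions (58.2 to 83.1). These 2 genes had the lowest shares and were left out after the data were seen, so the share had to rise.

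**Figure D5:**
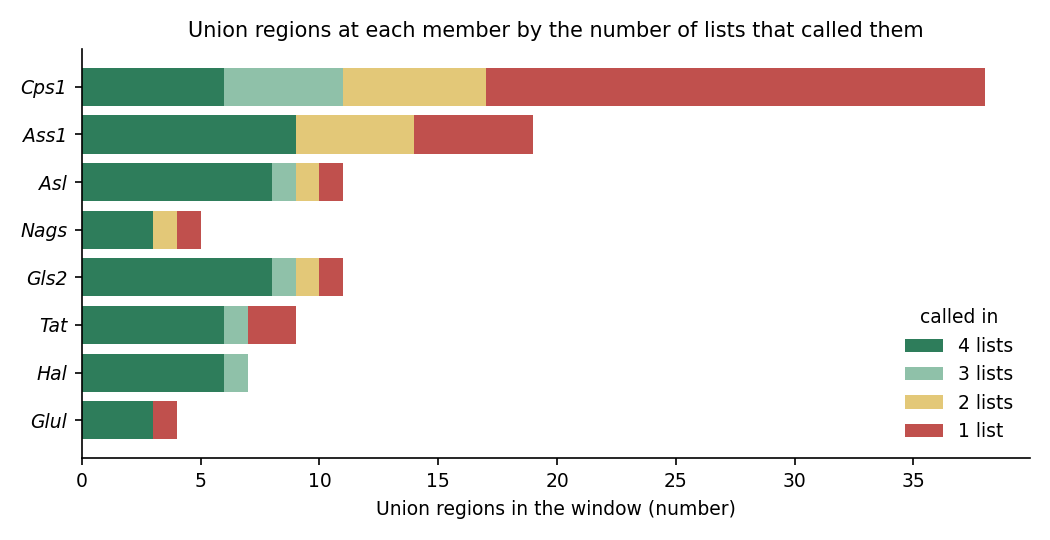
Number of union regions (x axis) in each member window (y axis, by gene), with colours for how many of the 4 lists called them. Cps1 holds 21 of the 32 member regions that were called in a single list, and Hal holds none of them.

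Sex-only regions, called in 1 sex of a strain and not in the other, were close to the background. In B6, 11 member regions were male-only (10.6%, against 13.3% of all regions) and 13 female-only (12.5%, against 13.3%). In CAST, 20 were male-only (19.2%, against 17.4%) and 11 female-only (10.6%, against 11.4%). Strain-only regions, called in both sexes of 1 strain and neither of the other, numbered 2 for B6 (1.92%, against 4.17%) and 5 for CAST (4.81%, against 6.15%). Cps1 alone held 12 of the 20 male-only regions of CAST.

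Most of these regions were weak. Of 55 member regions that were sex-only or strain-only, 6 reached the 50th score percentile in a list that called them, against 15.5% of all such regions. They were region 4 of Cps1, in an intron and not called in B6 males, region 11 of Asl, region 5 of Nags, region 5 of Gls2, region 1 of Hal and region 1 of Glul. None lay at the start of its gene. Of the 49 member regions called in all lists 40 reached that percentile, against 87.9% of all such regions.

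Short words, 6 in all, bound by liver and hormone-responsive factors were searched on both strands of the mm9 sequence, in 300 bases at the summit of each region called in all lists and in 300 bases at coding starts, from 250 before to 50 after it. The C/EBP word TTGCNNAA was found in 7 of 49 member regions (14.3%, against 10.4% of 48266 regions), the TCF/LEF word CTTTGAT in 1 (2.04%, against 3.72%) and the steroid receptor pair ACANNNTGT in 1 (2.04%, against 8.15%). The HNF4 word CAAAGTCCA, the cyclic AMP response element TGACGTCA and the HNF1 word GTTAATNAT were not found in these windows, against 0.539%, 0.313% and 0.667% of all regions. None of the words overlapped another in the printed windows.

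At the 7 member starts searched, the TCF/LEF word was present in 2, those of Nags and Hal, against 3.47% of 22350 coding starts. The steroid receptor pair was at the starts of Hal and Glul (5.83% of all starts) and the C/EBP word at that of Hal (10.3%). Of the other words, the HNF4 word is in 0.456% of all starts, the cyclic AMP response element in 2.33% and the HNF1 word in 0.711%, and in none of the 7. These matches are letters in the reference sequence, and the CAST sequence was not read.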

How the data were processed

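Liver H3K27ac ChIP-seq of 20 mice in 4 groups and 4 inputs was analysed from 4 deposited peak lists, each merged by the authors over 5 livers. Per the study's methods, uniquely mapped reads were aligned (Bowtie2 in the submitters' processing notes) to mm9 or, for CAST, to a CAST genome with coordinates then converted to mm9, and peaks were called with MACS2 over input. For each peak the deposited columns hold the score of the peak caller, the ratio of signal to background (fold enrichment), and the −log10 p-value and q-value. Scores were turned into percentiles within a list. The p-value and fold enrichment were solved for the whole number of fragments and the background (tolerance 0.001 in −log10 p). The backgrounds were whole multiples, to 0.1 step, of a step that corresponds to fragments of 213 to 229 bp in a 10 kb window of the ChIP library, and no scaling by a control library was visible in them. Fragment totals assume MACS2's mouse genome size. The levels scale each list by its own genome mean, so they hold no correction for how well the immunoprecipitation worked.

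Genes came from GENCODE vM1 on NCBIM37 (mm9), and coordinates are 1-based. Only peaks on the 19 autosomes and X were used. Distances run from the transcript start to the middle of a region, and a region within 1 kb of a start was assigned to it. Described for each member were the regions at its start, of highest percentile, widest, and any sex-only or strain-only region at the 50th percentile or above. Ratios were called at 1.5-fold, with the share of all coding windows or regions beside them. Members and gene lists were chosen with earlier results of these data known. Some items are not reported here, and every count and median is over the genes and starts that are. The functions were tested on simulated peaks. Python 3.11.15, numpy 2.4.6, pandas 2.3.3, scipy 1.17.1 and matplotlib 3.10.9 were used. Alternatives were other flanks, lists of equal length, a −log10 q of at least 5, gaps of up to 500 bp merged, at least 50% of a peak inside the window, and a 2-fold limit; those on 10 kb levels, other coding starts, scaling by the median ratio and leaving out Cps1 and Ass1 were added after the data were seen.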

Additional observations from a re-analysis of the deposited data

Results flagged for a closer look

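Covered bases moved in opposite directions between the sexes in the 2 strains at 5 of 8 members, against 43.1% of the 15483 coding windows with peaks in every list. The female over male ratio was 1.06 in B6 and 0.768 in CAST at Cps1, 1.05 and 0.878 at Ass1, and 0.944 and 1.03 at Asl. At Tat it was 0.804 and 1.09. At Nags the B6 lists differed by 4021 against 4005 bp, a ratio of 1.00 to 3 digits, and the CAST ratio was 0.867. With 1 pooled list per group the difference between strains was not tested. None of these ratios passed 1.5-fold.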

How the results depend on the processing

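Of 94 values recomputed under alternatives, 79 kept their direction and stayed within 1.5 times of the value in the report, 13 moved and 2 reversed. For 4 of the 79, a 2-fold limit on counts that were 0 at 1.5-fold, no other outcome was possible. All 8 members stayed above the all-gene median of covered percent under the 6 alternatives run for it. The covered percent of Glul minus the periportal median, 0.581, became 2.62 with no flank, 0.966 with lists of equal length and 1.26 at a −log10 q of at least 5, and reversed to -5.96 with 25 kb flanks and to -2.06 without regions at other genes' coding starts. The same difference in highest 10 kb level went from -3.08 to -1.77 at the peak of the own start. Regions called in all lists fell from 49 to 22 with no flank. Their share of 47.1% became 32.4% with no flank, below the 42.2% of regions in coding gene bodies. It became 72.3% without Cps1 and Ass1, the members of lowest share, where a rise was certain. Male-only regions of CAST went from 20 to 13 with lists of equal length, to 12 at the stricter q-value and to 12 with gaps merged, while female-only regions of CAST went from 11 to 5 with gaps merged. At the stricter q-value, B6 male-only regions went from 11 to 7 and female-only from 13 to 7. Dividing by the all-window median ratio raised the number of members with a higher 10 kb level in CAST females than in CAST males from 2 to 5. The cause was not tested. No paired analysis was possible because each group is 1 pooled list. The lists hold no spread between livers, and a summit of 53 to 92 fragments, as at region 3 of Asl, leaves wide counting intervals.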

Other observations

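Genes beside the members in nitrogen metabolism, a list of 30 transporters and enzymes of amino acid and ammonia handling, were read in the same way. In each list 25 of the 30 lay above the all-gene median of covered percent. The medians were 13.5%, 12.6%, 14.4% and 12.6%, and the lowest genes lay between 0% and 1.51%, under the lowest member. The median 10 kb levels were 5.45, 5.15, 6.48 and 5.80 in B6 males, B6 females, CAST males and CAST females. Between the sexes the covered bases passed 1.5-fold at 2 of 29 genes in B6, Rhbg (higher in females) and Tdo2 (lower), against 9.29% of coding windows, and at 1 of 30 in CAST, Oat (lower in females), against 10.9%. Neither count is above its background. Rhbg is an ammonium transporter of pericentral cells, Tdo2 the first enzyme of tryptophan breakdown and Oat the ornithine aminotransferase of pericentral cells.

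Lists of other zonated genes gave values on the same scale. Of 12 pericentral genes, 3 of which (Oat, Slc1a2 and Rhbg) are also among the 30, 9 lay above the all-gene median of covered percent in every list, with median 10 kb levels of 3.18, 3.61, 3.35 and 3.31. Of 10 periportal genes, 1 of which (Sds) is also among the 30, 10 did, with medians of 4.13, 3.70, 5.37 and 5.24. Glul, at 3.96, 3.74, 3.77 and 3.68, lay near these periportal medians in the B6 lists and below them in the CAST lists. The pericentral medians were the lower ones in all 4 lists, and the ranges overlapped: the pericentral genes reached 4.48 to 5.18 and the periportal genes went down to 1.78 to 2.46. The difference between the lists was not tested.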
